A study of Mus musculus with 15 samples.

Results

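Microtubules are hollow polymers of alpha and beta tubulin along which motor proteins carry cargo and pull chromosomes. Kinesins mostly walk towards the plus end, which points down the axon, and cytoplasmic dynein 1 walks back towards the cell body. Dividing cells use a separate set of kinesins to build the spindle and to finish cytokinesis, and cilia use their own kinesins and a second dynein. Structural microtubule-associated proteins such as Map2 in dendrites and Mapt (tau) in axons bind along the polymer. Dopamine neurons of the midbrain form long, highly branched axons that depend on this transport.

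The genes examined here encode kinesins and kinesin light chains, dynein chains, tubulins and the microtubule-associated proteins Map1a, Map1b, Map2, Map4 and Mapt. The rule that chose them used only the gene symbol. In the sorted experiment 75 of the 21566 genes in the table had such a symbol, and in the time series 53 of 10781. By role they were 11 mitotic kinesins, 19 cargo kinesins with their light chains, 8 ciliary motors, 4 other kinesins, 13 genes of cytoplasmic dynein 1, 5 alpha, 8 beta and 2 gamma tubulins, and the 5 microtubule-associated proteins. Dynlt1-ps1 and Tubb4b-ps1 are pseudogenes, and the other 73 are protein coding in GENCODE M21.

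The study dissociated ventral midbrains of mice that carry the Pitx3-GFP allele and separated the cells by fluorescence-activated cell sorting. Green fluorescent protein (GFP) marks cells that use Pitx3, a transcription factor gene of dopamine neurons, and all groups carried the allele. For the sorted experiment, 3 GFP+ and 3 GFP- libraries were made at embryonic day 14 (E14). For the time series, GFP+ cells alone were taken, with 3 libraries each from E14, from embryonic day 16 (E16) and from newborns (P0). Midbrains of 3 litters were used, and the labels do not say which library came from which litter. The spread behind each p-value is that between libraries and may be technical. The labels give dopamine neurons as the cell type of every sample, GFP- samples included. The summed level of 6 dopamine neuron markers was 3441 to 4334 normalized reads in the GFP- libraries and 64783 to 69701 in the GFP+ libraries.

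Depth was 17369191 to 22374153 reads over the genes of the sorted table and 17910017 to 33386535 over those listed for the time series, in which the gene with the lowest mean stood at 107.2 normalized reads. The 75 genes together took 2.48 to 2.79% of normalized reads in GFP- and 2.88 to 3.15% in GFP+ libraries. In bulk RNA of this kind, fewer cells of a type and less RNA per cell cannot be told apart. Values are the authors' normalized reads, in which each library was divided by 1 factor, and fold changes are on the log2(normalized reads + 1) scale, which understates those of low genes. Limma adjusted p-values are over all genes of a table, and a gene is said to rise or fall, or to be higher or lower, where that value is under 0.05.

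At E14, 9 of the 11 mitotic kinesins were lower in GFP+ than in GFP- cells, while part of the axonal motors and of the structural microtubule-associated proteins was higher by much smaller amounts. Of the 72 genes with a mean of at least 5 normalized reads, 17 were higher and 21 lower in GFP+ cells by limma, and 34 did not pass. Among all 18260 genes tested 30.7% passed, 12.7% as higher and 18% as lower, and the shares in the set were 23.6% higher and 29.2% lower. Its median log2 fold change was 0.07, against 0.02 over all genes. The libraries of both groups did not overlap for 23 higher and 22 lower genes, where 44.1% of all genes behaved so, 20.5% as higher and 23.5% as lower.

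**Figure D1:**
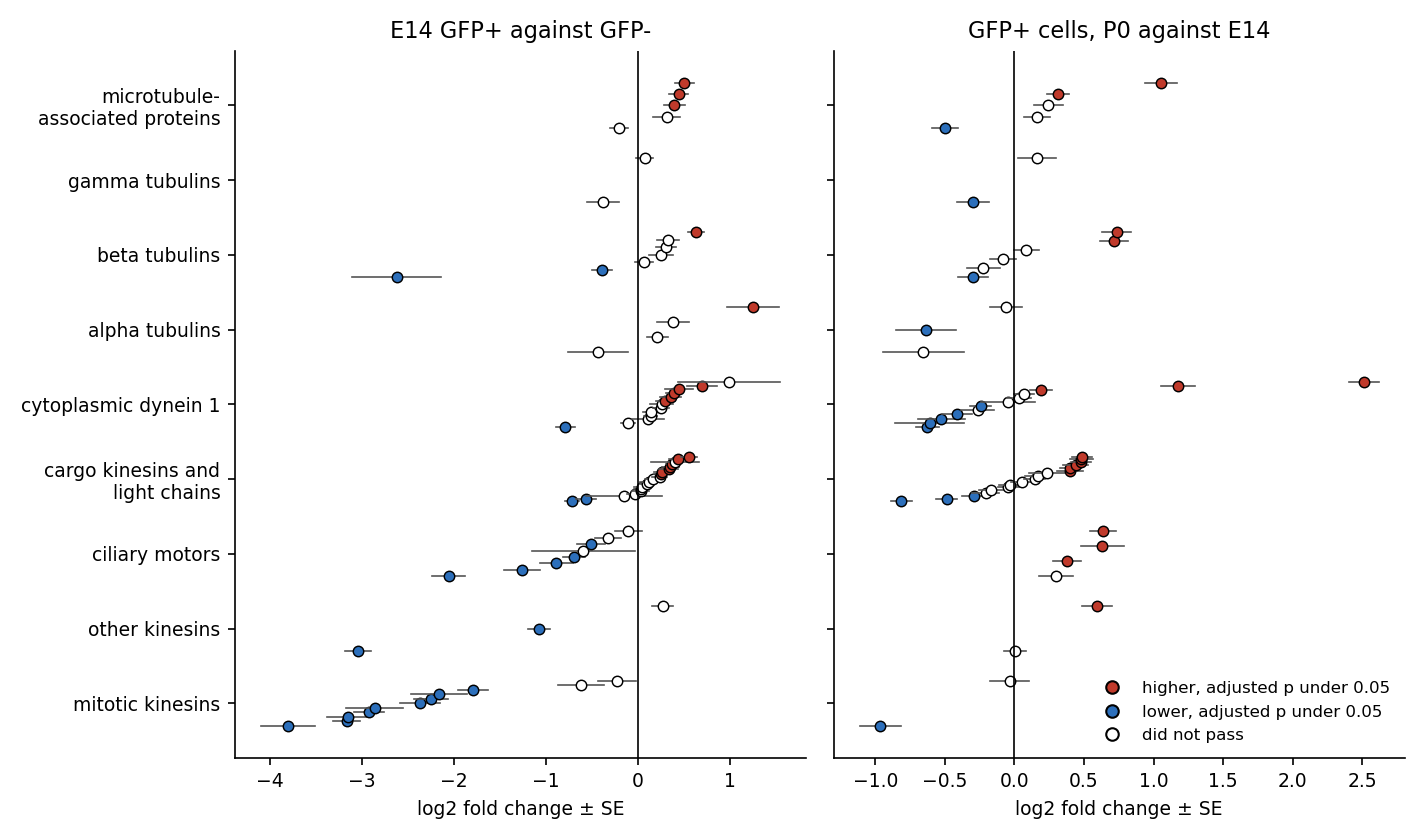
Log2 fold change with its standard error for each gene by role, in E14 GFP+ against GFP- cells (left, 72 genes) and in GFP+ cells at P0 against E14 (right, 53 genes). Red and blue points passed limma at an adjusted p under 0.05 and white points did not, and 9 of the 11 mitotic kinesins lie far to the left in the sorted experiment.

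Calls of small changes depended on how libraries were scaled. When each library was centred on its median log2 value, the median of all genes moved from 0.02 to 0.27, and the calls over all genes went from 2313 higher and 3286 lower to 6771 and 2518. Scaled to the same total, they were 1563 and 4008. Of the 17 higher genes of the set, all 17 kept their call under centring and 10 did under the same total, and 9 kept it whichever single library was left out. Of the 21 lower genes, 19 kept it under centring, 21 under the same total and 19 whichever library was left out. Under centring Tubb3, Tuba1a, Mapt, Dync1h1 and Kif5b, described below as not passing, also passed as higher, with limma adjusted p-values of 0.000977 for Dync1h1 to 0.00738 for Mapt.

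Of the 11 mitotic kinesins 9 were lower in GFP+ cells, against 18% of all genes tested. None of the 11 was higher, and their median log2 fold change was -2.37. Summed over the 11 genes, they stood at 2589 to 3477 normalized reads in GFP- and 625.4 to 920.2 in GFP+ libraries. Kif11, the motor that pushes spindle poles apart (chromosome 19, 37376403 to 37421859), was at 896, 638 and 648 normalized reads in the GFP- and 81.4, 78.6 and 77.6 in the GFP+ libraries. Every GFP+ library was thus far below every GFP- library, and the 3 GFP+ values were nearly equal. The log2 fold change was -3.16 (SE 0.15, limma adjusted p = 2.86e-08), a level 8.97-fold lower. Kif2c, which takes microtubules apart at kinetochores (chromosome 4, 117159639 to 117182639), had the largest change of the set, from 222, 146 and 172 to 15.6, 13.9 and 7.44 normalized reads, or -3.80 (SE 0.29, limma adjusted p = 1.61e-06). Kif4, a motor bound to chromosome arms, was at 349, 289.6 and 282 in GFP- and 44.3, 23.1 and 36.2 in GFP+ libraries, a log2 fold change of -3.16 (SE 0.23). Kif15, which can stand in for Kif11, was at 443, 319 and 383 in GFP- and 50.3, 51.8 and 44.7 in GFP+ libraries, or -2.93 (SE 0.16). In none of these genes did the groups come near each other.

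The other lower genes of this class were separated between the groups in the same way. Kif14, needed for cytokinesis, changed by -2.86, Kif22, which pushes chromosome arms away from the poles, by -2.37, and Kif20a, which carries the chromosomal passenger complex to the midzone, by -2.25 on the log2 scale. Kif18b and Kif18a, which restrain plus ends of astral and kinetochore microtubules, changed by -2.17 and -1.79. Cdc23 overlaps 29.3% of the exon bases of Kif20a on the opposite strand. Reads from that part cannot be told apart, because the use of strand in counting is not given in the sources used here.

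Kif20b and Kif23 did not pass. Kif23, the centralspindlin motor of the midzone that has also been described in dendrites, was at 230.3, 161 and 203 normalized reads in GFP- and 213, 124 and 175 in GFP+ libraries. Its groups overlapped, with a log2 fold change of -0.23 (SE 0.20, limma adjusted p = 0.432). Kif20b, which acts in abscission, was at 454, 266 and 306 in GFP- and 316, 159 and 202 in GFP+ libraries, again with overlap (-0.62, SE 0.25, limma adjusted p = 0.0812). Kif20b did pass as lower at the same total (limma adjusted p = 0.0478) and without GFP+ replicate 1 (log2 fold change -0.89, limma adjusted p = 0.00424), so that 10 of the 11 were then lower. In the authors' deposited table its log2 fold change was -0.60 with an adjusted p of 0.0467. They were also the mitotic kinesins with the highest level per exon length in GFP+ cells, at 32.4 ± 11.7 normalized reads per 1000 exon bases for Kif20b and 21.6 ± 5.66 for Kif23 (mean ± SD, n = 3). Kif20a followed at 12.8 ± 2.18 and Kif11 at 10.6 ± 0.26, and the other 7 were at 6.93 or less. The libraries of Kif20b and Kif23 overlapped in this order, as did those of Kif20a and Kif11. Exon length joins all annotated exons of a gene and can be far longer than its main transcript, so this order depends on the annotation. It was 9832 bases for Kif18a, 7901 for Kif23 and 4338 for Kif20a. The order by main transcript was not tested.

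**Figure D2:**
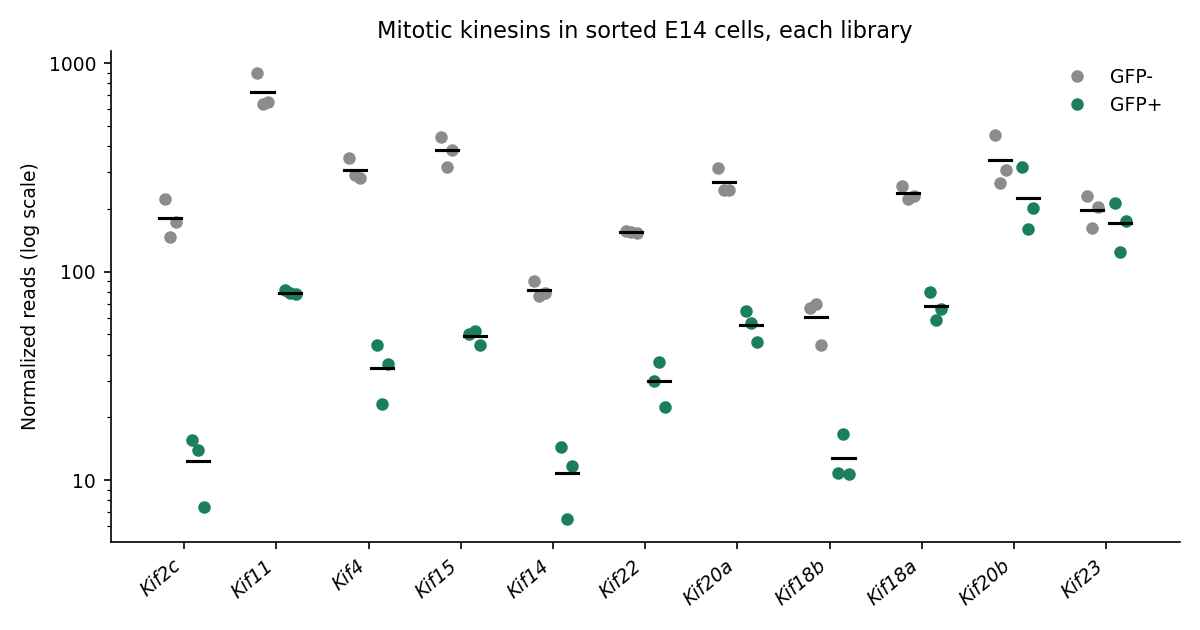
Normalized reads (log axis) of the 11 mitotic kinesins in each of the 3 GFP- and 3 GFP+ libraries at E14, with group means as bars. The groups are separated in the 9 genes at the left and overlap in Kif20b and Kif23, where GFP+ values reach 316 and 213.

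Most promoters of these genes hold a short element. The cell cycle genes homology region (CHR), with the core TTTGAA, is known from genes transcribed late in the cell cycle, often beside a CCAAT box. In RefSeq windows from 250 bases before to 50 after the start (GRCm38.p6), TTTGAA was present on either strand in 9 of the 10 mitotic kinesins with an entry, or 90% of their windows, against 17.893% of all 32851 windows. CCAAT was present in 60% of their windows against 37.408%, and both motifs in 60% against 6.953%. In the other roles between 0 and 20% of windows held TTTGAA. The window of Kif18a did not hold it, while those of Kif20b and Kif23, which did not differ past the threshold, did. A match is a description of the letters and not of a bound site. The stretches below show the element in the 4 mitotic kinesins with the largest changes and, for comparison, in Kif23 and Kif20b; they run 5′ to 3′ on the strand of the gene, and capitals mark 1 match per stretch to TTTGAA or its reverse complement TTCAAA. The stretch of Kif20b holds a further TTTGAA directly after the capitals, left in lower case, which began 13 bases after the start.
Kif2c, chr4:117178858-117178887 on the minus strand: ccaggctgctctTTCAAAcctgagtaatgc
Kif11, chr19:37376351-37376380 on the plus strand: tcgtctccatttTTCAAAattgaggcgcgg
Kif4, chrX:100626072-100626101 on the plus strand: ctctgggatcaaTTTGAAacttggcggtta
Kif15, chr9:122951050-122951079 on the plus strand: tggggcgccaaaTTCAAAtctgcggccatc
Kif23, chr9:61946780-61946809 on the minus strand: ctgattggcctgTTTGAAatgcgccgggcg
Kif20b, chr19:34922353-34922382 on the plus strand: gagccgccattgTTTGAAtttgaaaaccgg
The element began 19 bases before the start in Kif11 and in Kif15, 103 before it in Kif2c, and 19 bases after it in Kif4, 2 after it in Kif23 and 7 after it in Kif20b.

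Genes that work with these motors on the spindle were lower as well. Of 17 spindle genes outside the set, 15 were lower in GFP+ cells, against 18% of all genes tested. Numa1 was higher at 0.24 on the log2 scale and Ckap5 did not pass, and the median of the 17 was -2.10. Hmmr changed by -3.80 (SE 0.26), Nusap1 by -3.57 (SE 0.21), Aurkb by -3.39 (SE 0.34), Aspm by -3.35 (SE 0.24) and Plk1 by -3.19 (SE 0.27). Cenpe, a kinetochore kinesin whose symbol is outside the rule, changed by -2.47. All 14 markers of dividing cells were lower in GFP+ cells, with sums of 8642 to 10954 normalized reads in GFP- and 1782 to 1965 in GFP+ libraries, and none was at 0. All 10 markers of radial glia and progenitors were lower, with sums of 77472 to 91523 and 7189 to 8639. Their part in the level of the mitotic kinesins was not tested.

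The ciliary motors were lower or did not pass, and none was higher. Of the 8 genes 5 were lower, against 18% of all genes tested, and the median log2 fold change was -0.65. Kif7, which sits at the tip of primary cilia and sets Hedgehog signalling, was at 225, 199.5 and 234 normalized reads in GFP- and 49.1, 64.8 and 43.6 in GFP+ libraries. Its groups were far apart (log2 fold change -2.06, SE 0.18, limma adjusted p = 5.36e-06), although 9330171B17Rik overlaps it on the opposite strand. Kif6, of ependymal cilia in the mouse, was at 138, 139 and 122 in GFP- and 43.1, 61.1 and 62.7 in GFP+ libraries, or -1.26 (SE 0.20). Kif24, which trims microtubules at the mother centriole, was at 133, 111 and 110.2 in GFP- and 56.2, 63.8 and 70.2 in GFP+ libraries, or -0.89 (SE 0.18). None of the GFP+ libraries reached a GFP- library in these genes. Dync2li1, the light intermediate chain of the ciliary dynein, was at 469, 456 and 434 in GFP- and 297, 308 and 237 in GFP+ libraries, or -0.70 (SE 0.12), while its heavy chain Dync2h1 was at 2549.9, 1921 and 2212 in GFP- and 2611, 1698 and 1951 in GFP+ libraries and overlapped (-0.11, limma adjusted p = 0.627). Kif9, of motile cilia, was lower by limma (-0.51, adjusted p = 0.0263) but not without GFP- replicate 2 or 3 or GFP+ replicate 2 or 3, with a highest limma adjusted p of 0.0937, and not under centring. Of 5 markers of motile cilia measured, 3 were lower and 1 higher, with sums of 1910 to 2056 in GFP- and 1256 to 1758 in GFP+ libraries, none at 0, and their part in these values was not tested.

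Both Kif26 genes, which encode kinesins described as lacking ATPase activity, were lower in GFP+ cells. Kif26a, which restrains growth factor signalling in enteric neurons of the mouse, was at 489, 585 and 605 normalized reads in GFP- and 65.8, 74.0 and 60.6 in GFP+ libraries. The groups stood far apart, at a log2 fold change of -3.05 (SE 0.14, limma adjusted p = 2.86e-08). Kif26b was at 1640.4, 2097 and 1899 in GFP- and 750.3, 953 and 968 in GFP+ libraries, or -1.08 (SE 0.12, limma adjusted p = 3.14e-05), with no overlap. Kif2a, a microtubule depolymerase that prunes axon branches, did not pass (0.27, limma adjusted p = 0.0995). Kif12 was under the mean of 5 normalized reads needed for the test.

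Among the cargo kinesins, the kinesin-1 genes Kif5a, Kif5c, Klc1 and Klc2 were higher in GFP+ cells. Of the 19 genes of this role 7 were higher, 2 lower and 10 did not pass, where 12.7% of all genes were higher and 18% lower. The median log2 fold change of the 19 was 0.16, and 14 were higher under centring and 4 at the same total. Kif5a, the neuronal kinesin-1 heavy chain (chromosome 10, 127225696 to 127263348), was at 6571, 7957 and 7323 normalized reads in GFP- and 10577, 11036 and 10442 in GFP+ libraries. All GFP+ libraries were above all GFP- libraries (log2 fold change 0.56, SE 0.0861, limma adjusted p = 0.000432). Kif5c, the other neuronal heavy chain, was at 25773, 31125 and 32285 in GFP- and 39245, 40576 and 40299 in GFP+ libraries, or 0.44 (SE 0.10, limma adjusted p = 0.00731). Kif5b, the heavy chain of all cell types, was at 7906, 6886 and 7294 in GFP- and 8923, 7626 and 8149 in GFP+ libraries, and its groups overlapped (0.16, SE 0.0871, limma adjusted p = 0.192). The light chains Klc1 and Klc2, which couple kinesin-1 to cargo, were higher by 0.35 (SE 0.0904) and 0.37 (SE 0.0732) on the log2 scale, with 1297, 1323 and 1266 normalized reads of Klc2 in GFP- and 1686, 1711 and 1639.7 in GFP+ libraries. In these 4 higher genes every GFP+ library was above every GFP- library.

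The kinesin-3 motors differed in both directions. Kif1a and Kif1b, which carry synaptic vesicle precursors, and Kif13b were higher by 0.33, 0.25 and 0.26 on the log2 scale. These 3 calls were lost when libraries were scaled to the same total, and without 4, 5 and 6 of the 6 single libraries in turn, with highest limma adjusted p-values of 0.128 without GFP+ replicate 3 for Kif1a, 0.0938 without GFP- replicate 2 for Kif1b and 0.102 without GFP+ replicate 1 for Kif13b. Kif13a, which moves endosomal and Golgi cargo, was lower, at 1355, 1493 and 1371 normalized reads in GFP- and 854, 884 and 824 in GFP+ libraries (log2 fold change -0.72, SE 0.081, limma adjusted p = 3.64e-05). Kif1c was lower as well, at 502, 601 and 532 in GFP- and 348, 392 and 360.5 in GFP+ libraries (-0.57, SE 0.11, limma adjusted p = 0.00174). In both genes the groups stood apart. Kif3a, Kif3b, Kif3c, Kif16b, Kif17, Kif21a, Kif21b, Klc3 and Klc4 did not pass.

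Per exon length, the most abundant cargo kinesin genes of GFP+ cells at E14 were Kif5c, at 5606 ± 98.3, and Klc1, at 5448 ± 165 normalized reads per 1000 exon bases (mean ± SD, n = 3), with overlapping libraries. Kif3a at 1865 ± 127, Kif5a at 1529 ± 44.5 and Kif1b at 1199 ± 10.9 followed, and these 3 did not overlap. Kif21a at 1077, Kif5b at 1032 and Kif1a at 994.5 overlapped with each other. Dync1h1, the dynein heavy chain, stood at 1727 ± 69.7 on the same scale. This order also depends on the joined exon length, which was 17608 bases for Kif1b and 3586 for Kif3a. It was not tested by main transcript.

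Differences in cytoplasmic dynein 1 were small, with a median log2 fold change of 0.26. Of its 13 genes 5 were higher in GFP+ cells and 1 lower, against 12.7% and 18% of all genes. Under centring 9 of the 13 were higher, and at the same total 2. Dync1h1 was at 20869.8, 23905 and 23624 normalized reads in GFP- and 25918, 27131 and 28095 in GFP+ libraries. These groups did not overlap, yet the difference did not pass (log2 fold change 0.25, SE 0.0896, limma adjusted p = 0.0568). In the authors' deposited table the adjusted p of Dync1h1 was 0.0275. Dync1li2, a light intermediate chain that binds cargo adaptors, was higher, at 6782, 7235 and 7754 in GFP- and 9916, 9487 and 9050.4 in GFP+ libraries (0.39, SE 0.0806, limma adjusted p = 0.00341). The one lower gene was the light chain Dynlt3, at 1043, 991 and 1080.0 in GFP- and 632, 649 and 524 in GFP+ libraries, where the groups stood far apart (-0.79, SE 0.10, limma adjusted p = 9.61e-05). The intermediate chain Dync1i1 did not differ past the threshold, at 217, 324 and 338 in GFP- and 294, 359 and 281 in GFP+ libraries (0.11, limma adjusted p = 0.689).

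The copies of the light chain Dynlt1 share much of their sequence, so their counts are uncertain. Of their 75-base windows, between 51.2% in Dynlt1a and 100% in Dynlt1-ps1 also occur in another gene. Dynlt1c, Dynlt1f and Dynlt1b were higher in GFP+ cells by 0.69, 0.44 and 0.35 on the log2 scale, and Dynll2, a light chain shared with myosin 5a, by 0.30. Dynlt1c was at 1071, 783 and 679 normalized reads in GFP- and 1629.8, 1194 and 1229 in GFP+ libraries. Its groups did not overlap. The calls of Dynlt1f, Dynlt1b and Dynll2 were lost at the same total and without 4, 4 and 5 of the single libraries, with highest limma adjusted p-values of 0.174 without GFP- replicate 3, 0.137 without GFP+ replicate 3 and 0.15 without GFP+ replicate 2.

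Of the tubulins, Tubb3 and Tuba1a did not pass. Tubb3, the beta tubulin that marks neurons, was at 26169.9, 33616 and 33930.0 normalized reads in GFP- and 34642, 41293 and 40961 in GFP+ libraries. Its groups did not overlap, but the log2 fold change of 0.32 (SE 0.12) had a limma adjusted p of 0.0659, and 0.0248 without GFP+ replicate 1. In the authors' deposited table the adjusted p was 0.0316 for Tubb3 and 0.137 for Tuba1a. Tuba1a, the main alpha tubulin of growing neurons, was at 48917, 51406 and 58303 in GFP- and 54711, 63329.8 and 65202 in GFP+ libraries and overlapped (0.21, SE 0.11, limma adjusted p = 0.188). Tubb2a, Tubb2b and Tubb5 did not pass either, at 0.063, 0.30 and 0.25. Under centring all of them passed as higher (limma adjusted p = 0.0211, 0.00195 and 0.00806). Tubb2b also passed with the filter at 50 (limma adjusted p = 0.0485) and by edgeR (adjusted p = 0.0414). Tubb5 also passed without GFP+ replicate 1 (limma adjusted p = 0.0358). In the authors' deposited table the adjusted p was 0.0175 for Tubb2b, 0.103 for Tubb5 and 0.756 for Tubb2a. Both gamma tubulins, which nucleate microtubules, did not pass.

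Tuba1b was higher in GFP+ cells (chromosome 15, 98931425 to 98934565), at 1521, 2893 and 3427 normalized reads in GFP- and 5084, 8699 and 4581 in GFP+ libraries. The groups did not overlap, although libraries varied within each (log2 fold change 1.25, SE 0.28, limma adjusted p = 0.00588). Its share of alpha tubulin per exon length was 4.45 ± 1.35% in GFP- and 8.71 ± 2.7% in GFP+ libraries. Of its 75-base windows 71.9% also occur in another gene, so how reads were divided among Tuba1a, Tuba1b and Tuba1c is uncertain. Tubb4a, a beta tubulin of the nervous system, was at 621, 634 and 634 in GFP- and 929, 944 and 1060.2 in GFP+ libraries, with groups far apart (0.63, SE 0.0872, limma adjusted p = 0.000184). Tubb6 was lower but low in both groups, at 21.5, 31.5 and 18.4 in GFP- and 1.2, 5.55 and 3.19 in GFP+ libraries (-2.63, SE 0.48, limma adjusted p = 0.00152). Tubb4b was lower at -0.39 (limma adjusted p = 0.018), a call lost under centring and without GFP- replicate 2 or 3 or GFP+ replicate 3, where the adjusted p reached 0.0902, and 37.8% of its windows occur elsewhere.

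Of the 5 microtubule-associated proteins 3 were higher in GFP+ cells, against 12.7% of all genes tested. Map2, which spaces microtubules in dendrites (chromosome 1, 66175273 to 66442583), was at 46920.2, 42481 and 44817 normalized reads in GFP- and 69392, 58497 and 62551 in GFP+ libraries. All GFP+ libraries lay above the GFP- libraries (log2 fold change 0.50, SE 0.10, limma adjusted p = 0.00298). Map1b, of growing axons, was at 39091, 44037 and 45982 in GFP- and 53898, 57998 and 63310.0 in GFP+ libraries (0.44, SE 0.11, limma adjusted p = 0.00812), and without GFP+ replicate 3 the adjusted p was 0.0523. Mapt was at 17922, 26708 and 25061 in GFP- and 25000.5, 31431 and 29256 in GFP+ libraries, with overlap (0.31, SE 0.15, limma adjusted p = 0.132). Map1a was called higher at 0.39 with overlapping libraries, a call lost at the same total and without 4 of the 6 single libraries, with a highest limma adjusted p of 0.103 without GFP+ replicate 3. Map4, found in most cell types, did not pass. In GFP+ cells Map2 at 3859 ± 335, Mapt at 3793 ± 434 and Map1b at 3686 ± 298 normalized reads per 1000 exon bases were at overlapping levels, and Map4 at 269 and Map1a at 93.2 were lower. These levels depend on the joined length of all annotated exons, and their order by main transcript was not tested.

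Among lists of partners of these motors, most genes did not pass, as among all genes tested, of which 12.7% were higher and 18% lower. Of 36 neuronal microtubule regulators 16 were higher and none lower, with a median log2 fold change of 0.25, among them Stmn2 at 0.72 (SE 0.0898) and Map6 at 0.55 (SE 0.0921). Of 19 dynactin subunits and dynein adaptors 4 were higher and 1 lower. Dctn1, the dynactin subunit that binds dynein, was higher by 0.36 (SE 0.0762), and Nde1, a dynein regulator of dividing progenitors, was lower at -2.59 (SE 0.18). Of 14 kinesin adaptors 3 were higher, of 26 genes for tubulin folding, modification and severing 4 were higher and 2 lower, and of 17 genes of the gamma tubulin ring 3 were lower. Among 9 pan-neuronal markers 3 were higher and 1 lower, with sums of 50547 to 65659 normalized reads in GFP- and 74418 to 78876 in GFP+ libraries, none at 0, and their part in the axonal genes was not tested.

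The time series followed these genes in GFP+ cells from E14 to birth. From E14 to P0, 17 of the 53 genes rose and 13 fell by limma, while 55.7% of all 10781 genes passed, 25.1% rising and 30.6% falling. From E14 to E16, 9 rose and 10 fell (33% of all genes passed, 15.2% rising and 17.8% falling), and from E16 to P0, 15 rose and 8 fell (33.4%, 16.8% and 16.6%). These 3 comparisons share libraries. Libraries did not overlap for 21 higher and 15 lower genes from E14 to P0 (65.2% of all genes, 28.9% higher and 36.2% lower), for 16 and 11 from E14 to E16 (46.4%, 20.3% and 26.1%) and for 19 and 7 from E16 to P0 (44.8%, 22.8% and 22%). The change after E16 differed from the change before it in 6 genes, more positive in 5 and more negative in 1, where 13.6% of all genes differed, 8% and 5.62% by direction. The median log2 fold changes of the set were 0.05, 0.05 and 0.03 for E14 to P0, E14 to E16 and E16 to P0, against -0.05, -0.04 and -0.01 over all genes. Of the 17 genes that rose to P0, 16 kept the call whichever library was left out, as did 6 of the 13 that fell.

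Dync1i1 rose most. This intermediate chain, the form of dynein known from neurons, lies on chromosome 6, 5725639 to 6028039. It was at 478, 400.2 and 405 normalized reads at E14, 1119.8, 1332 and 1233 at E16 and 2197, 2398 and 2747 at P0. No library of one age overlapped with another age. From E14 to P0 the log2 fold change was 2.51 (SE 0.11, limma adjusted p = 8.62e-10), or 5.71-fold, made of 1.52 before and 0.99 after E16. Its widely expressed counterpart Dync1i2 was at 11368, 11965 and 13154 at E14, 12937, 12119 and 11951 at E16 and 9947, 10690.0 and 10162 at P0. All P0 libraries were below all others (E14 to P0 -0.24, SE 0.0753, limma adjusted p = 0.0136), though without E14 replicate 3 the adjusted p was 0.0619. Per exon length, Dync1i1 made up 7.58 ± 1.16% of the pair at E14, 18.8 ± 1.85% at E16 and 35.5 ± 2.6% at P0 (mean ± SD, n = 3).

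The light chains of dynein moved in opposite directions. Dynlt3 (chromosome X, 9654267 to 9663003) was at 883, 991 and 962 normalized reads at E14, 1473, 1263 and 1391 at E16 and 1813, 1990.2 and 2678 at P0. The ages did not overlap, and the rise to P0 was 1.17 on the log2 scale (SE 0.12, limma adjusted p = 2.24e-06). Dynll1, a hub protein that binds dynein and many other partners, fell after E16, at 3977, 4104 and 3969.6 at E14, 3931, 3794 and 4179 at E16 and 2411, 2448 and 2987 at P0 (E14 to P0 -0.63, SE 0.0848, limma adjusted p = 2.69e-05). Dynll2 was at 3751, 3835 and 3716 at E14, 4169.6, 3079.7 and 4033 at E16 and 2547, 2807 and 3164 at P0, and fell to P0 by 0.41 on the log2 scale (SE 0.11, limma adjusted p = 0.00493). For Dynll1 the P0 libraries lay below both other ages, and for Dynll2 they overlapped with E16 but not with E14. Dync1h1 was at 31276, 31208 and 30878 at E14 and 33045, 31624 and 33306 at P0, without overlap, and did not pass over the whole interval (0.069, limma adjusted p = 0.441). From E16 to P0 Dync1h1 rose (log2 fold change 0.21, limma adjusted p = 0.0384), a call lost without 7 of the 9 single libraries. Dynlt1b and Dynlt1f fell by 0.53 and 0.61 on the log2 scale and Dync1li2 rose by 0.19, but leaving out single libraries ended these calls, with highest limma adjusted p-values of 0.0671 without P0 replicate 2, 0.187 without E14 replicate 3 and 0.152 without E14 replicate 2.

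**Figure D3:**
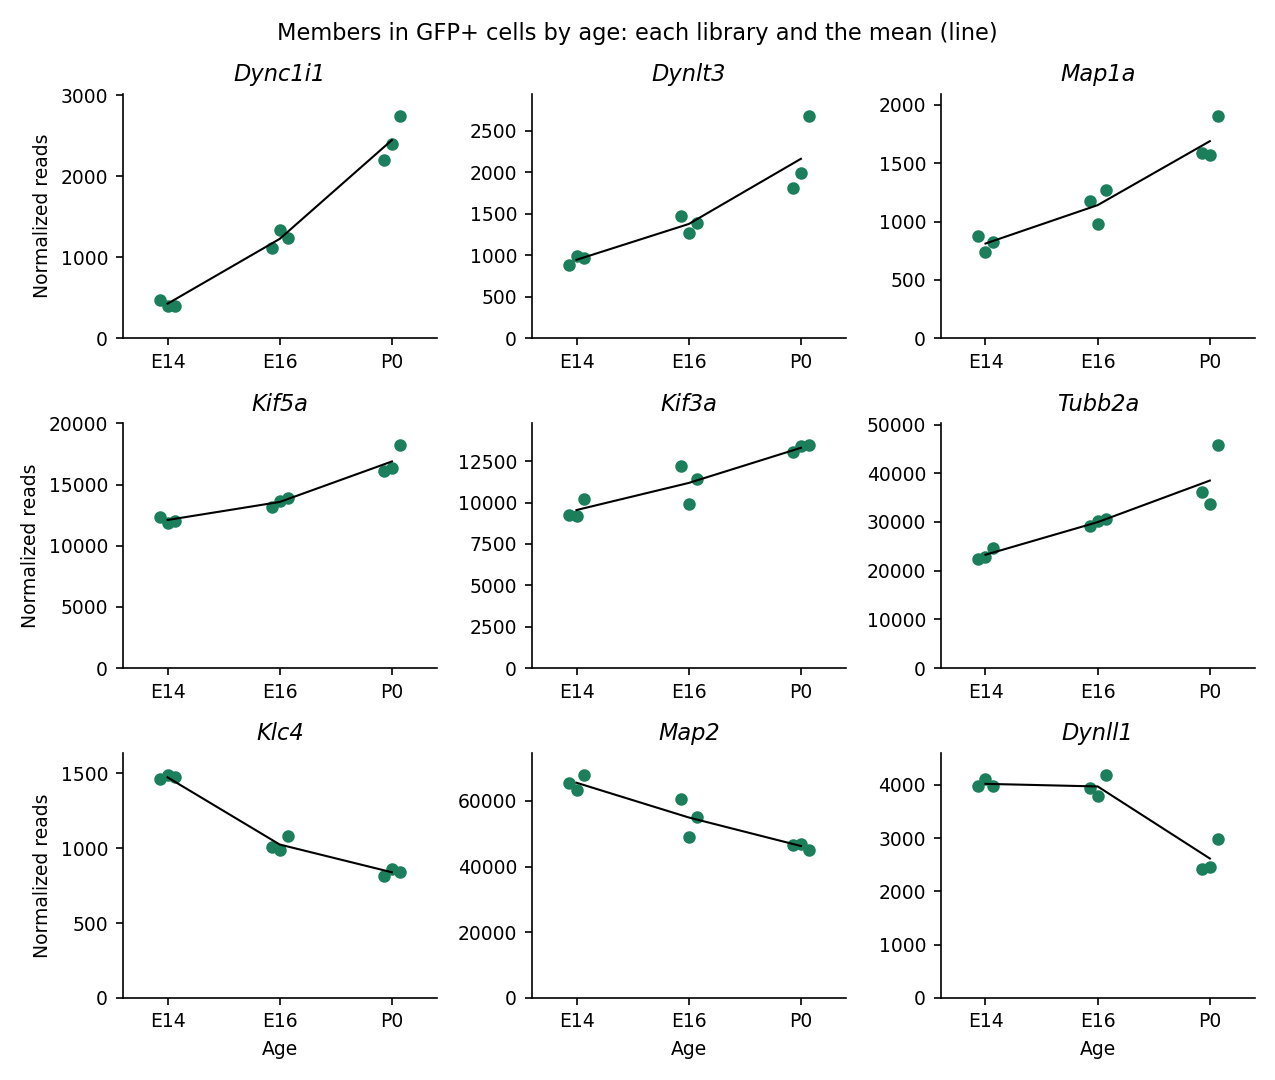
Normalized reads of 9 genes in each of the 3 GFP+ libraries at E14, E16 and P0, with a line through the means and axes that start at 0. Dync1i1, Dynlt3, Map1a, Kif5a, Kif3a and Tubb2a are highest at P0, Klc4 and Map2 are lowest there, and Dynll1 drops after E16 from 3794 or more to 2987 or less.

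Kinesins of axonal and dendritic transport changed in both directions. Of the 17 cargo kinesins and light chains in the table, 6 rose from E14 to P0, 3 fell and 8 did not pass. Over all genes 55.7% passed, 25.1% rising and 30.6% falling. The median log2 fold change of the 17 was 0.14. Kif5a was at 12379.8, 11875 and 12052 normalized reads at E14, 13179.8, 13655 and 13887 at E16 and 16118, 16343 and 18188 at P0. Each age lay above the one before without overlap (E14 to P0 0.48, SE 0.072, limma adjusted p = 7.02e-05). The step of Kif5a from E14 to E16 did not pass (0.17, limma adjusted p = 0.093). Kif3a and Kif3b, which form the kinesin-2 motor, rose together by 0.48 (SE 0.0835) and 0.49 (SE 0.0701) on the log2 scale, with normalized reads of Kif3b at 3435, 3303 and 3303 at E14, 4410.2, 4090.3 and 4213 at E16 and 4393, 4726 and 4961 at P0. Kif1a was at 10086, 9449.7 and 8483 at E14, 9719.7, 10521 and 11313 at E16 and 11880.5, 12185 and 13998 at P0 (E14 to P0 0.44, SE 0.09, limma adjusted p = 0.000859). In Kif3a, Kif3b and Kif1a every P0 library was above every E14 library. Kif13a and Kif16b, an early endosome motor, rose by 0.40 (SE 0.0777) and 0.40 (SE 0.0935).

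The kinesin-1 heavy chains Kif5b and Kif5c did not pass from E14 to P0. Kif5c was at 45453, 46570.0 and 47572 normalized reads at E14 and 39321, 40581 and 44433 at P0 (-0.17, limma adjusted p = 0.122), and Kif5b at 10687, 10535 and 11090.5 at E14 and 9081, 9737 and 9183 at P0 (-0.21, limma adjusted p = 0.0863, and 0.0112 without E16 replicate 2). Their P0 libraries lay below their E14 libraries without overlap. From E14 to E16 Kif5b fell (log2 fold change -0.27, limma adjusted p = 0.0479). That call was lost under both other scalings and without 8 of the 9 single libraries. Per exon length the share of Kif5a among the 3 heavy chains was 18.1 ± 0.57% at E14, 22.1 ± 1.86% at E16 and 25.7 ± 0.39% at P0, and that of Kif5c was 67.9 ± 0.63% at E14 and 61.8 ± 0.5% at P0. The height of these shares depends on the joined exon length.

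Klc4 fell most among the cargo genes. This kinesin light chain (chromosome 17, 46630624 to 46646022) was at 1459.8, 1488 and 1473 normalized reads at E14, 1009, 986 and 1078 at E16 and 816, 858 and 843 at P0. The ages did not overlap, and the fall to P0 was 0.81 on the log2 scale (SE 0.076, limma adjusted p = 8.44e-07). Kif21b, which limits microtubule growth, was at 5401, 5315 and 4920.0 at E14, 3661, 3824 and 4285 at E16 and 3788, 3665 and 3706 at P0 and fell by 0.49 (SE 0.075, limma adjusted p = 8.85e-05), with the drop before E16. Kif13b fell by 0.29, a call lost without E14 replicate 1 or P0 replicate 2, with a highest limma adjusted p of 0.0658. Klc2 dipped at E16, at 1731, 1674 and 1823 at E14, 1349, 1462 and 1512 at E16 and 1835, 1785 and 1794 at P0, so that it fell by 0.27 (SE 0.0745, limma adjusted p = 0.0114) and then rose by 0.33 (SE 0.0745, limma adjusted p = 0.00478). E16 libraries of Klc2 did not overlap with those of the other ages.

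**Figure D4:**
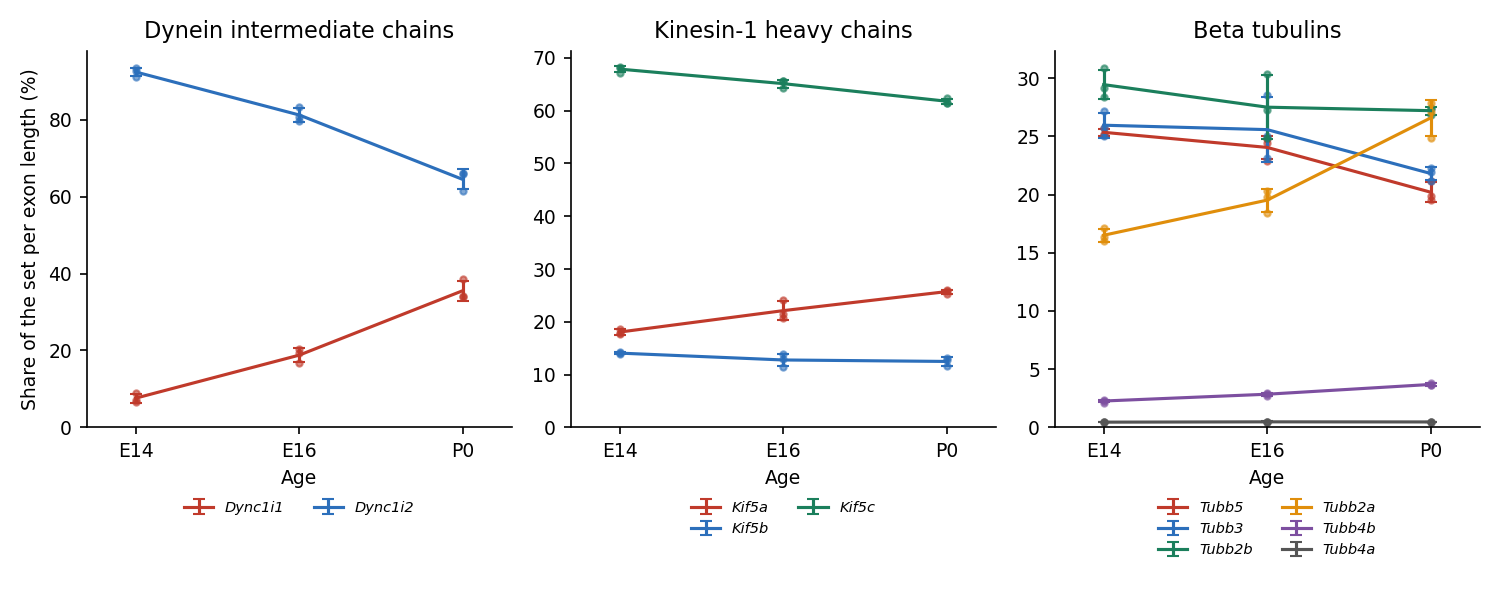
Share per exon length of each gene within the dynein intermediate chains, the kinesin-1 heavy chains and the beta tubulins in GFP+ cells by age (mean and SD of 3 libraries, small points are libraries). Dync1i1, Kif5a and Tubb2a gain share from E14 to P0, reaching 35.5%, 25.7% and 26.6%. Exon length joins all annotated exons of a gene, and the height of each share depends on it.

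Among the tubulins, Tubb2a and Tubb4b rose. Tubb2a was at 22481, 22730.3 and 24593 normalized reads at E14, 29209.8, 30147 and 30531 at E16 and 36194, 33599.5 and 45695 at P0. The ages did not overlap (E14 to P0 0.71, SE 0.10, limma adjusted p = 4.59e-05). Tubb4b was at 3790.0, 4234 and 4367 at E14, 5064, 6236 and 5739.5 at E16 and 6239, 6410.2 and 8069 at P0, also in rising order (E14 to P0 0.73, SE 0.10, limma adjusted p = 4.22e-05). Its step from E16 to P0 did not pass. Per exon length Tubb2a went from 16.5 ± 0.58% to 26.6 ± 1.53% of the beta tubulins, while Tubb5 went from 25.4 ± 0.32% to 20.2 ± 0.85% and Tubb3 from 26.0 ± 1.09% to 21.8 ± 0.59%. The height of these shares depends on the joined exon length. Of the 75-base windows of Tubb2a 43.2% occur in another gene, as do 32.2% of those of Tubb2b, so the division of reads between them is uncertain.

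Tubb5, the beta tubulin of most cell types, fell by 0.30 on the log2 scale and Tuba1c by 0.64. Both calls were lost without 4 and 3 of the 9 single libraries, with highest limma adjusted p-values of 0.129 without P0 replicate 1 and 0.0709 without E14 replicate 1. Tubg1 fell by 0.30, a call lost under both other scalings and without 5 single libraries, with a highest limma adjusted p of 0.128 without E14 replicate 2. The neuronal Tubb3 was at 39875, 44737 and 42753 normalized reads at E14 and 34022, 34981 and 40332 at P0, with overlap (-0.22, limma adjusted p = 0.119, and 0.0421 without E16 replicate 2). From E16 to P0 Tubb3 fell (log2 fold change -0.32, limma adjusted p = 0.0469), a call lost without 7 of the 9 single libraries. Tuba1a did not pass, at 47001, 55773 and 58729 at E14 and 53354, 45915 and 55251 at P0 (-0.062, limma adjusted p = 0.67). Tuba1b varied at P0, at 1871, 5302 and 5059 normalized reads, and did not pass (-0.66, limma adjusted p = 0.0689).

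Map1a and Map2 moved in opposite directions. Map1a, which is known to take over from Map1b as neurons mature, was at 876, 737 and 823 normalized reads at E14, 1172, 978 and 1273 at E16 and 1587, 1572 and 1906 at P0. It rose without overlap between ages (E14 to P0 1.05, SE 0.11, limma adjusted p = 2.74e-06). Map2 was at 65445, 63315 and 67825 at E14, 60640.0, 48977 and 55235 at E16 and 46688, 46994 and 45089 at P0, falling by 0.50 on the log2 scale (SE 0.0929, limma adjusted p = 0.000405). All P0 libraries of Map2 were below all E14 and E16 libraries. Map4 rose by 0.31 (SE 0.0791, limma adjusted p = 0.00414), at 4456, 4064 and 3856 at E14, 5376, 4899 and 5515 at E16 and 4791, 5176 and 5381 at P0. Map1b was at 59435, 55465 and 50344 at E14 and 61789.6, 63245 and 70587 at P0, and Mapt at 33862, 33887 and 29088 at E14 and 33648, 35391 and 39252 at P0. From E14 to P0 neither passed (0.24 with a limma adjusted p of 0.0534, and 0.16 with 0.163). Map1b did at the same total, where its limma adjusted p was 0.0223. From E14 to E16 Mapt rose (log2 fold change 0.27, limma adjusted p = 0.0403), a call lost without 6 of the 9 single libraries.

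In the time series 3 of the 4 ciliary motors listed rose from E14 to P0, against 25.1% of all genes. Dync2h1, the heavy chain of the dynein that returns cargo from the tip of the cilium, was at 3102, 2849 and 3031 normalized reads at E14, 3947, 3313 and 3167 at E16 and 5081, 4695 and 4203 at P0. Every P0 library was above every earlier library (E14 to P0 0.63, SE 0.093, limma adjusted p = 5.44e-05). Dync2li1 and Kif9 rose by 0.38 (SE 0.10) and 0.63 (SE 0.15) on the log2 scale, and Kif27 did not pass (0.30, limma adjusted p = 0.0548). The 3 markers of motile cilia in the table summed to 1620 to 1777 normalized reads at E14, 1629 to 1984 at E16 and 2523 to 3170 at P0, 1 of them rising and 1 falling, and their part in these values was not tested.

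Of the mitotic kinesins, 2 were in the time series table, Kif20b and Kif23, which had not passed between the sorted populations. Kif20b was at 361, 318 and 401 normalized reads at E14, 325, 231 and 261 at E16 and 197, 163 and 191 at P0. All P0 libraries were below all earlier ones (E14 to P0 -0.96, SE 0.15, limma adjusted p = 8.33e-05). Kif23 was at 156, 161 and 181 at E14, 125, 113 and 124 at E16 and 153, 160.4 and 173 at P0, with a dip at E16 and no change that passed over the whole interval (-0.034, limma adjusted p = 0.853). The 3 markers of dividing cells in the table summed to 1470 to 1561 normalized reads at E14, 1429 to 1533 at E16 and 1165 to 1309 at P0, with 2 falling, and their part in Kif20b was not tested. Of 8 spindle genes listed there, 3 rose to P0 and 3 fell, where 25.1% of all genes rose and 30.6% fell. Among the 8 were Cenpe at 1.30 (SE 0.18) and Numa1 at -0.84 (SE 0.0783). Kif26b rose by 0.60 (SE 0.11, limma adjusted p = 0.000327), before E16, at 1093, 1027 and 846 at E14, 1415, 1400.4 and 1609 at E16 and 1402, 1403 and 1668 at P0. Its E14 libraries were below all others.

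The partners of the motors changed to P0 in both directions, while 55.7% of all genes passed, 25.1% rising and 30.6% falling. Of 14 kinesin adaptors 7 rose and 2 fell, among them Jakmip1 at 0.59 (SE 0.11), the mitochondrial adaptor Trak1 at 0.41 (SE 0.0868) and Kifap3, the third subunit beside Kif3a and Kif3b, at 0.30 (SE 0.0775). Of 18 dynactin and dynein adaptor genes 6 rose and 3 fell, with Hook2 at 1.05 (SE 0.0965) and Hook1 at 0.51 (SE 0.0887). Of 36 neuronal microtubule regulators 8 rose and 11 fell. Map7d2, Map7 and Map9, the first and second of which recruit kinesin-1 to microtubules, rose by 1.27 (SE 0.11), 1.07 (SE 0.12) and 1.03 (SE 0.0804), and Dcx, of migrating neurons, changed by -0.59 (SE 0.0729). Of 22 genes for tubulin folding, modification and severing 2 rose and 8 fell. Svbp and Vash2, which together remove the terminal tyrosine of alpha tubulin, changed by -0.92 (SE 0.13) and -0.84 (SE 0.10), and Atat1, which acetylates alpha tubulin, by -0.69 (SE 0.12). Of 15 genes of the gamma tubulin ring 1 rose and 6 fell.

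The sorted experiment and the time series share no library, so a gene's difference at E14 can be set beside its later change. Of the 53 genes tested in both, 15 passed in the sorted comparison and from E14 to P0, and 11 of them (73.3%) did so in opposite directions. Over all genes that passed in both, 1281 of 2040 (62.8%) did. Lower in GFP+ cells at E14 and rising to P0 were Dync2li1, Dynlt3, Kif13a, Kif26b, Kif9 and Tubb4b. Higher in GFP+ cells and falling to P0 were Dynll2, Dynlt1b, Dynlt1f, Kif13b and Map2. Kif5a, Kif1a, Map1a and Dync1li2 were higher in GFP+ cells and rose from E14 to P0. Of the sorted calls, those of Dynll2, Dynlt1b, Dynlt1f, Kif13b, Kif1a and Map1a were lost at the same total and without 4 to 6 of the 6 single libraries. Those of Kif9 and Tubb4b were lost under centring and without 4 and 3 of them. The calls from E14 to P0 were lost without 2 of the 9 single libraries for Dynlt1b and Kif13b, without 5 for Dynlt1f, which also lost its call under both scalings, and without 6 for Dync1li2. Dync1i1, with the largest rise, did not differ between the sorted populations past the threshold.

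**Figure D5:**
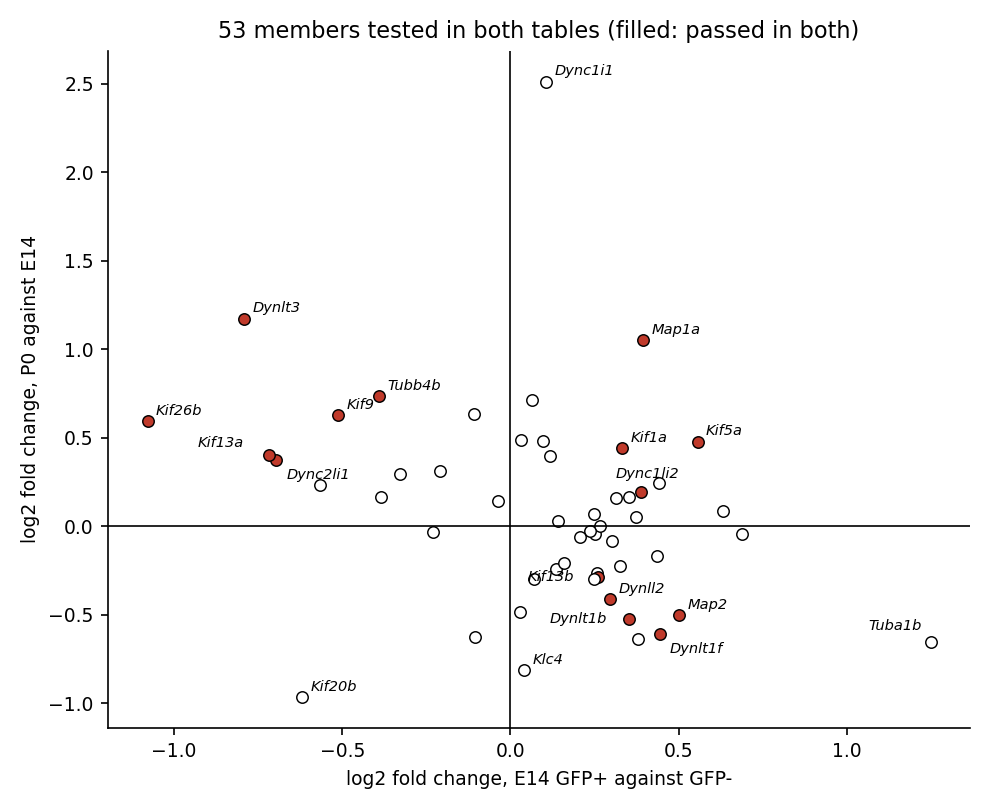
Log2 fold change of 53 genes in E14 GFP+ against GFP- cells (horizontal) and in GFP+ cells at P0 against E14 (vertical), from tables without shared libraries. The 15 filled points passed limma in both; 6 lie at the upper left, 5 at the lower right and 4 at the upper right.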

How the data were processed

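The authors deposited normalized reads per gene, a signal in which each library was divided by 1 factor; per the submitters' processing notes, the tools were TopHat2, Trim Galore and DESeq2 and the build mm10 (GRCm38), while the counter and its use of strand are not given in the sources used here. For the sorted libraries, 100% of values came out as whole reads within 0.1. The test, limma-trend (limma 3.58.1, R 4.3.3), used log2(normalized reads + 1) of the deposited values for genes with a mean of at least 5, with Benjamini-Hochberg adjustment over all genes and a threshold of 0.05. The 6 sorted libraries were fitted alone, and the 9 of the time series in 1 fit. The edgeR 4.0.16 quasi-likelihood test on these reads, added after seeing the data, called 2154 genes higher and 3387 lower. Adjusted p-values in the authors' deposited tables were used only for values named as theirs. RNA had been depleted of ribosomal RNA, and positions and exon lengths are from GENCODE M21. An exon length joins all annotated exons of a gene and can be far longer than its main transcript. By role, up to 4 genes per direction with the largest changes, among passing genes without overlap whose mean reached 50, were to be given with every library, besides 9 genes given whatever their change; others were added after their values were seen. The members and lists were chosen with earlier results of these data known.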

Additional observations from a re-analysis of the deposited data

Results flagged for a closer look

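In 6 genes the log2 change from E16 to P0 differed from that from E14 to E16 by a limma test of the difference itself, which 13.6% of all genes passed. The difference was 1.26 (limma adjusted p = 0.0242) for Dynlt1c, a copy of the light chain whose counts are uncertain, and 0.87 (0.03 by limma) for Kif23, both of which fell and then rose. Kif1c differed by 0.81 (limma adjusted p = 0.0308), at 406, 288 and 383 normalized reads at E14, 274, 293 and 306 at E16 and 404, 418 and 429.8 at P0. Klc2 differed by 0.60 (limma adjusted p = 0.00883) and kept its call whichever library was left out. Dync1li2 differed by 0.44 (limma adjusted p = 0.0473), rising after E16, and Dynll1 by -0.59 (limma adjusted p = 0.0187), falling then. The other 5 calls were lost without between 2 and 7 of the 9 single libraries, with highest limma adjusted p-values of 0.122 for Dynlt1c without E16 replicate 3, 0.0821 for Kif23 without E16 replicate 3, 0.0945 for Kif1c without E16 replicate 1, 0.146 for Dync1li2 without E16 replicate 2 and 0.1 for Dynll1 without E16 replicate 3. Over all genes this test gave 862 higher and 606 lower, and 632 and 717 when libraries were scaled to the same total.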

How the results depend on the processing

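With 3 libraries per group, single libraries decide part of the calls. Leaving out 1 library at a time, the sorted experiment gave 29 to 40 calls among these genes (10 to 17 higher, 19 to 23 lower), E14 to E16 gave 13 to 19 (7 to 13 higher, 5 to 10 lower), E16 to P0 gave 15 to 22 (9 to 15 and 4 to 9) and E14 to P0 gave 24 to 35 (16 to 19 and 8 to 16). The contrast of the later with the earlier interval gave 1 to 8 (1 to 5 and 0 to 4). Centring libraries on the median gave 37 higher genes in the sorted experiment and 6 lower from E14 to E16. Scaling to the same total gave 10 higher in the sorted experiment, 14 higher from E14 to E16 and 3 lower for the contrast of the intervals. The cause was not tested.

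Titles and descriptions give both fractions the same numbers, and those in the descriptions are not consecutive. However, no label says that a number marks a shared litter, day or preparation, so the samples were not taken as paired. Correlations of same-numbered libraries in their deviations from group means were 0.0976 to 0.367 in the sorted experiment, where 2 of 3 correlated best with their own number, and -0.1131 to 0.2446 in the time series. With the replicate number as a block, limma called 30 higher genes in the sorted experiment in place of 17, and 2 lower in place of 1 for the contrast of the intervals. In that fit Tubb3, Tuba1a, Mapt, Dync1h1 and Kif5b passed as higher, with limma adjusted p-values of 0.000122, 0.014, 0.000223, 0.00123 and 0.0152, and Kif20b as lower (1.8e-05). The edgeR test gave 15 higher and 21 lower in the sorted experiment. Pseudocounts of 0.5 and 5 and the filters on low values left the counts over the whole set within 1.5 times, although the filter at 50 gave 2 beta tubulins higher and 1 lower in the sorted experiment in place of 1 and 2, and Dync1h1 passed in the sorted experiment with a filter at a mean of 50 (limma adjusted p = 0.0462). Leaving out single libraries, 5 log2 changes turned sign, of which none had passed: Tuba1a from E14 to P0 ranged from -0.16 to 0.019 (turned without E14 replicate 3 or P0 replicate 2), Tubb3 from E14 to E16 from -0.031 to 0.22, and from E16 to P0 Map1b from -0.035 to 0.093, Kif5b from -0.073 to 0.15 and Kif5c from -0.057 to 0.056, turned without E16 replicate 2 or, for Map1b and Kif5c, P0 replicate 3.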

Other observations

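Circular RNAs, which arise when the end of an exon is joined back to an earlier exon, came from 21 of these genes. In the time series 60 of 7528 circular RNAs had such a host, and their summed normalized reads were 99.3, 88.4 and 105.9 at E14, 89.3, 64.9 and 53.5 at E16, and 51.2, 48.9 and 52.2 at P0. All P0 sums were below all E14 sums. The same sum over all circular RNAs was not taken, so whether the lower sums are particular to these hosts was not tested. Of the 12 with a mean of at least 2 normalized reads, 0 passed limma from E14 to P0 and 3 had an unadjusted p under 0.05, while 52 of 1630 tested passed overall (3.19%).

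The copies of Dynlt1 were split differently in the separately normalized tables. In GFP+ cells at E14, Dynlt1c was at 1629.8, 1194 and 1229 normalized reads in the sorted experiment and at 151, 221 and 155 in the time series, and Dynlt1a at 449, 430.2 and 447 and 852, 993 and 976. The scale of the tables was not tested, so these levels are given side by side.

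In the authors' deposited table of the sorted experiment, 19 of these genes had an adjusted p under 0.05 as higher and 22 as lower in GFP+ cells, of 75 with an adjusted p. Of all 20731 genes with one in the authors' deposited table, 10.9% were higher and 15.5% lower. In the authors' deposited table for E14 to P0, 18 were higher and 12 lower at P0, of 53, against 25.4% higher and 30.9% lower of 10780 genes in all.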
